A study of Mus musculus with 13 samples.

Results

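The loss of p21 was examined in the intestinal epithelium of mice with 1 knocked-out copy of casein kinase Iα (CKIalpha, gene Csnk1a1). The arrays were chosen by their titles: 2 arrays labelled CKIalpha Het/p21 KO were set against 2 labelled CKIalpha Het, which makes 4 of the 13 arrays of the series. Both groups carried the heterozygous, gut-specific CKIalpha knockout, and they differed by the p21 knockout, so no array here comes from a mouse with 2 intact CKIalpha copies. The CKIalpha Het/p53 KO group, with 2 arrays of the same heterozygous mice crossed with p53 knockout mice, served as a second comparison. Whether p21 loss went with the same differences when both CKIalpha copies were knocked out was read from 2 CKIalpha KO/p21 KO and 2 CKIalpha KO arrays. The fit and its error also took in 2 CKIalpha KO/p53 KO arrays, with both CKIalpha copies and p53 knocked out. Some of their values are shown, but no fold change used them. The labels give enterocytes as the cell type, a 129/SVJ background and biological replicates for all groups. They do not name the age or sex of the mice, the promoter behind the gut-specific knockout, or how many mice gave the RNA of an array.

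p21, encoded by Cdkn1a, binds cyclin-dependent kinases and slows the entry of cells into DNA replication. p53 is the best-known activator of Cdkn1a, and p21 in turn keeps genes driven by E2F factors low. In the intestine dividing cells lie in the crypts, and their progeny stop dividing, differentiate into absorptive and secretory cells and move up the villi. CKIalpha phosphorylates β-catenin, a step towards its degradation, and the CKIalpha Het groups keep 1 working copy of its gene in the gut, whereas the CKIalpha KO groups have both copies knocked out.

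Values are log2 intensities, and 1 unit is a 2-fold difference. The fit covered 16721 genes on the 12 arrays with a group, and a gene was called at a Benjamini-Hochberg adjusted p under 0.05 in limma. Because a group has 2 arrays, the error behind each p-value is the scatter of replicates pooled from all 6 groups. Across genes, the CKIalpha Het/p21 KO replicates had a correlation of 0.986 and 183 genes that differed by more than 2-fold, and the CKIalpha Het replicates had 0.99 and 138 genes. Of the other groups, CKIalpha KO/p21 KO had the widest scatter (0.971, 781 genes) and CKIalpha Het/p53 KO the narrowest (0.987, 173 genes). The pooled error thus includes groups with more scatter than the 2 compared. Xist, transcribed from the inactive X chromosome, read 3.15 and 9.26 on replicates 1 and 2 of CKIalpha Het/p21 KO, against 3.49 and 9.56 on those of CKIalpha Het. The Y-linked gene Kdm5d read 6.94 and 3.82, against 7.76 and 3.77. The other 4 groups split by replicate number in the same way. Each group therefore held 1 array of each kind, and the spread within a group includes this difference. Of 15 genes whose replicates differed by more than 3 log2 units in either group, 8 did so in CKIalpha Het/p21 KO and 11 in CKIalpha Het. Among those chosen after their values were seen, the smooth muscle actin gene Acta2 read 5.11 and 9.66 in CKIalpha Het/p21 KO, against 5.57 and 5.27 in CKIalpha Het. The sialyltransferase gene St3gal4 read 4.57 and 4.65, against 4.29 and 10.92, so that replicate 2 of each group had genes that set it apart.

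The knocked-out gene was read on 1 probe set that the array annotation assigns to Cdkn1a and to the transcript 4930567H12Rik together. No probe set is named for Cdkn1a alone, so the values belong to the pair of transcripts. The deposited tables hold no probe sequences, and the parts of Cdkn1a sequence that are shown here are the 250 bases before each of its RefSeq start sites (GRCm38.p6, plus strand), because the promoter holds the sites through which p53 acts and the knockout was compared with loss of p53. In the first, capitals mark a pair of CATG cores with 6 bases between them, the core pattern of a p53 response element. In the second, capitals mark GGGCGG, the core of a GC box, a common promoter element bound by Sp1-type factors.
Cdkn1a start site 1, chr17:29090729-29090978: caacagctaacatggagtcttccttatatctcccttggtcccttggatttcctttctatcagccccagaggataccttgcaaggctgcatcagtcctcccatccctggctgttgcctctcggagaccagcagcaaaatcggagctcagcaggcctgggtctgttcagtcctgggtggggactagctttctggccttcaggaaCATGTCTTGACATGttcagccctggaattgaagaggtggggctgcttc
Cdkn1a start site 2, chr17:29093519-29093768: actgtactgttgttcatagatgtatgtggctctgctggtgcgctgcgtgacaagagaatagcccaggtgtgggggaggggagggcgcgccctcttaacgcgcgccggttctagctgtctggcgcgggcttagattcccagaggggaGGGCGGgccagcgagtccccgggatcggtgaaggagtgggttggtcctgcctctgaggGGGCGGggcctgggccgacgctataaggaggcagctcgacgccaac

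The motif CATGNNNNNNCATG, whose letters read alike on both strands, was found 48 bases before start site 1 and in 0.49% of 32851 promoters of this length. The motif GGGCGG, searched on both strands, was found 104 and 46 bases before start site 2 and in 32.7% of the same promoters. The matches do not overlap. They describe the letters only, and the arrays measured no binding.

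The shared probe set read 5.62 and 5.52 on the CKIalpha Het/p21 KO arrays, against 9.12 and 9.35 on the CKIalpha Het arrays. The 2 groups lay far apart, and the arrays of the knockout were alike. The difference was -3.66 ± 0.28 (log2, SE, n = 2 per group), or 12.7-fold lower, with an adjusted p of 0.0115 over the 28593 probe sets of a limma fit that kept unnamed and shared ones. On CKIalpha Het/p53 KO arrays it read 9.64 and 9.49, both above the CKIalpha Het arrays. On CKIalpha KO/p21 KO arrays it read 5.62 and 5.86, against 9.28 and 10.3 on CKIalpha KO arrays. The labels of the p21 knockout arrays thus fit the shared probe set on all 4 of them.

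Rab44 was the only gene called in the main comparison, and it is the first measured gene after Cdkn1a in the RefSeq order of chromosome 17. It encodes a member of the Rab family of small GTPases, proteins that direct membrane traffic. Rab44 read 7.53 and 8.17 on the CKIalpha Het/p21 KO arrays, against 5.21 and 4.97 on the CKIalpha Het arrays. The groups did not overlap, and the 8 arrays of the groups with p21 present, in either CKIalpha genotype, read between 4.65 and 5.21. Rab44 rose 6.77-fold in the limma fit. On the log2 scale this is 2.76 ± 0.22 (SE, n = 2 per group), with an adjusted p of 0.00421. The replicate 1 arrays differed by 2.32 and the replicate 2 arrays by 3.20. In CKIalpha KO mice it read 8.51 and 8.23 with p21 knocked out, against 4.86 and 4.73 without, and rose 11.9-fold there (3.57 ± 0.22, adjusted p = 0.000374). The heterozygous fold change used none of these arrays, but its pooled error did. Fitted on the 4 arrays alone, Rab44 did not pass (adjusted p = 0.115), nor without CKIalpha Het replicate 2 (log2 2.64, adjusted p = 0.117).

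**Figure D1:**
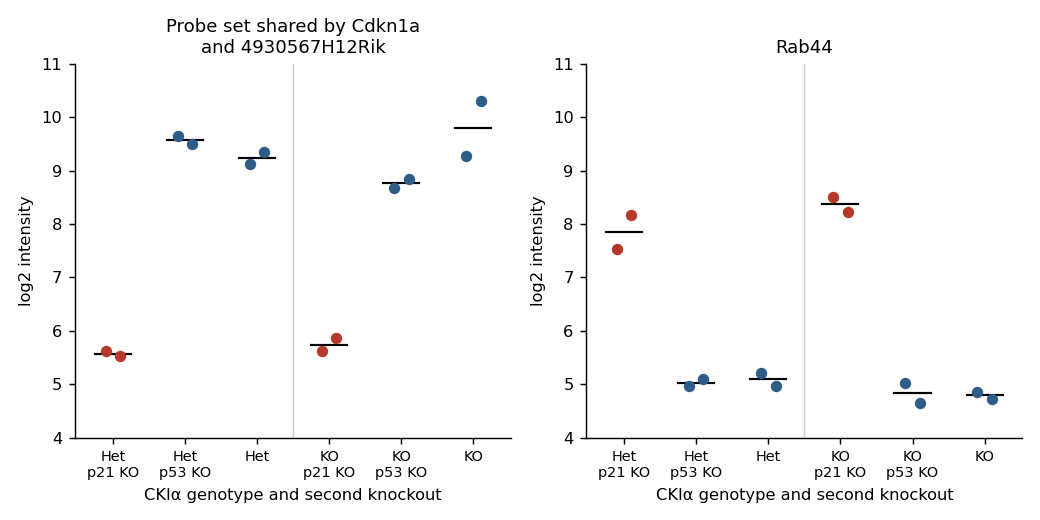
Log2 intensity of the probe set shared by Cdkn1a and 4930567H12Rik (left) and of Rab44 (right) on the 12 arrays with a group; points are arrays, black lines are group means, and red marks the p21 knockout groups. On all 4 p21 knockout arrays the shared probe set lay below, and Rab44 above, every one of the other 8 arrays.

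Of the 10 nearest measured genes, 5 on each side, Rab44 alone was called. The splicing factor gene Srsf3, the first measured gene on the other side, was at 0.10 ± 0.19 in CKIalpha Het mice (adjusted p = 1.00) and at 0.90 ± 0.19 in CKIalpha KO mice (adjusted p = 0.172). Without Rab44 the nearest genes lay between -0.41 and 0.66, with BC004004 lowest and Bnip5 highest. Among the 40 nearest, 3 had an unadjusted p under 0.05 and were higher (Rab44, Dnah8 and Brpf3), and 1 was lower (BC004004). Over all genes tested, 2.51% were higher and 2.49% lower at that threshold. Dnah8, a dynein heavy chain gene named after its values were seen, read 7.48 and 7.26 in CKIalpha Het/p21 KO, against 5.37 and 6.63 in CKIalpha Het, and did not pass over all genes (adjusted p = 0.696). In CKIalpha KO mice Dnah8 read 7.73 and 8.26 with p21 knocked out, against 6.25 and 6.83 without (1.45 ± 0.42, adjusted p = 0.252). It was thus higher in both CKIalpha genotypes with no overlap of the groups, and was called in neither. Ppil1, 3 places after Cdkn1a, was likewise higher in both, at 0.44 ± 0.23 in CKIalpha Het mice and 0.69 ± 0.23 in CKIalpha KO mice. BC004004 and Tbc1d22b were lower in both with no overlap, and none of these genes was called. This pattern was picked out after the values were seen. On chromosome 17 as a whole, 46 of 819 genes (5.62%) had an unadjusted p under 0.05, against 5.01% of all genes. Whether the altered locus itself or DNA carried along with it has a part in the Rab44 signal was not tested.

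**Figure D2:**
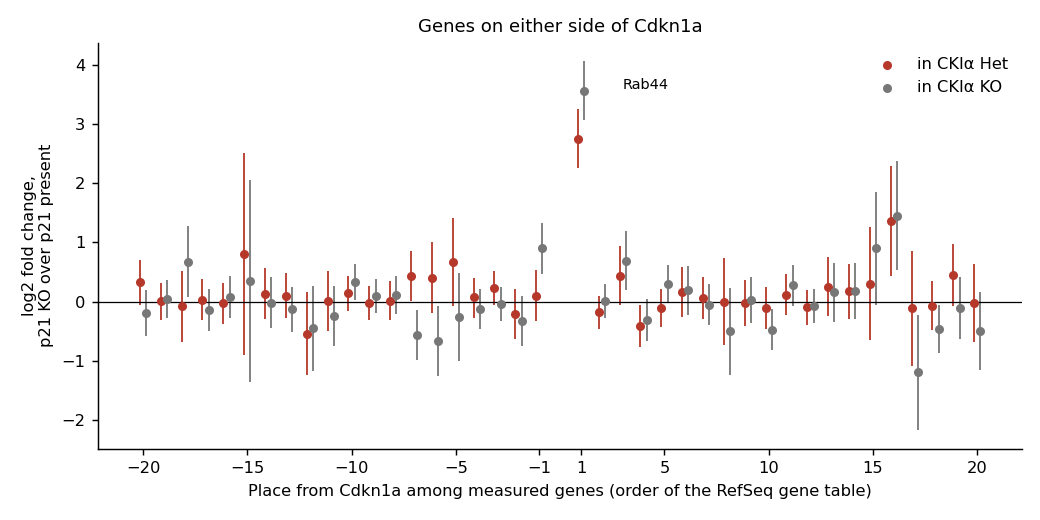
Log2 fold change of p21 knockout over p21 present for the 20 measured genes on each side of Cdkn1a, in order of position and not to scale, in CKIalpha Het mice (red) and CKIalpha KO mice (grey); bars are 95% confidence intervals of the fit. Rab44 stands at 2.76 and 3.57, and the next highest value among the 10 nearest is that of Srsf3, 0.90 in CKIalpha KO mice.

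Beyond this locus the comparison called no gene. Of 16721 genes 1 was called higher (0.00598%) and 0 lower, while 837 (5.01%) had an unadjusted p under 0.05, with 420 higher and 417 lower. The median of all log2 fold changes was -0.02. Both CKIalpha Het/p21 KO arrays lay above both CKIalpha Het arrays for 15.9% of genes and below both for 20.5%. At the median standard error of 0.18, a gene called alone would need a log2 change of 1.73 (3.31-fold), and genes with smaller errors would need less. The count moved with single arrays: 0 genes were called without CKIalpha Het replicate 2, 4 higher without CKIalpha Het/p21 KO replicate 1, and 3 higher and 5 lower, Duoxa2 and Scoc among them, without either CKIalpha KO/p21 KO array. Without CKIalpha Het replicate 1, and without either CKIalpha Het/p53 KO array, 2 were lower. The genes described next are the 15 with the smallest p in each direction and the leading members of gene lists. None of them other than Rab44 passed in CKIalpha Het/p21 KO against CKIalpha Het, and their values are given as measurements.

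The genes that p21 is best known for holding down had list medians close to that of all genes, with replication genes slightly above it. Of 27 replication and S phase genes tested, 0 had an unadjusted p under 0.05. Of them 20 were above 0 and 7 below, while 54% of all genes were below 0. The list median was 0.13, against -0.02 over all genes, with a range from -0.18 to 0.74. Rrm2, a subunit of the enzyme that makes deoxynucleotides, was at its top with 7.55 and 7.45 in CKIalpha Het/p21 KO, against 6.34 and 7.19 in CKIalpha Het (0.74 ± 0.41, 95% interval -0.18 to 1.65). The cyclin E1 gene Ccne1, a partner of the kinase that p21 inhibits, read 6.42 and 6.52, against 5.54 and 6.29 (0.55 ± 0.32, 95% interval -0.15 to 1.26). In both genes CKIalpha Het replicate 1 was the low array, and the other 3 lay close together.

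Of 24 mitosis and spindle genes 0 reached that threshold either, with a median of 0.00 and a range from -0.42 to 0.38. When 1 array was left out, the median ran from -0.214 to 0.242 for mitosis and from 0.001 to 0.261 for replication. The mitotic kinase gene Plk1 was lowest, with 7.40 and 6.67 in CKIalpha Het/p21 KO, against 7.44 and 7.46 in CKIalpha Het. In CKIalpha KO mice, on separate arrays, the medians of these lists with p21 knocked out were 0.94 for replication and 0.90 for mitosis. The difference between the CKIalpha genotypes had an unadjusted p under 0.05 for 13 of the 27 and 12 of the 24 genes, against 8.13% of all genes, and 0 of either list were called in limma. Rrm2 was at 1.31 ± 0.41 there (adjusted p = 0.279).

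Other regulators of the cycle differed little. Among 15 G1 regulators only Cdkn1c, which encodes the related inhibitor p57, had an unadjusted p under 0.05, with 6.12 and 5.74 in CKIalpha Het/p21 KO, against 6.37 and 6.27 in CKIalpha Het (-0.39 ± 0.17, adjusted p = 1.00). Cdk6, a G1 kinase gene, was at -0.23 ± 0.20. The list had a median of -0.07. Of 28 p53 targets 1 was lower at that threshold, against 2.49% of all genes, and the median was 0.02. This was Tnfrsf10b, a death receptor gene, with 6.06 and 5.49, against 6.43 and 6.30 (-0.59 ± 0.18). Fas, another death receptor gene, read 6.68 and 7.03, against 7.66 and 7.08 (-0.52 ± 0.24), and the kinase gene Plk3 8.67 and 9.43, against 8.10 and 8.59 (0.70 ± 0.40). Among 19 DNA damage and repair genes 0 reached the threshold (median 0.11). The 22 Wnt/β-catenin targets had 0 as well (median -0.04), and so did the 12 genes of the β-catenin destruction complex and the CK1 family (median -0.03). Csnk1a1 itself read 10.44 and 10.66, against 10.61 and 10.69, which checks no genotype because all of these mice carry the same allele. Its difference of -0.10 was within its standard error of 0.13. Csnk1a1 read 10.55 and 10.65 on CKIalpha KO arrays, and 10.70 and 10.70 on CKIalpha KO/p21 KO arrays. This probe set thus did not separate the CKIalpha genotypes, and their labels were not checked by it.

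**Figure D3:**
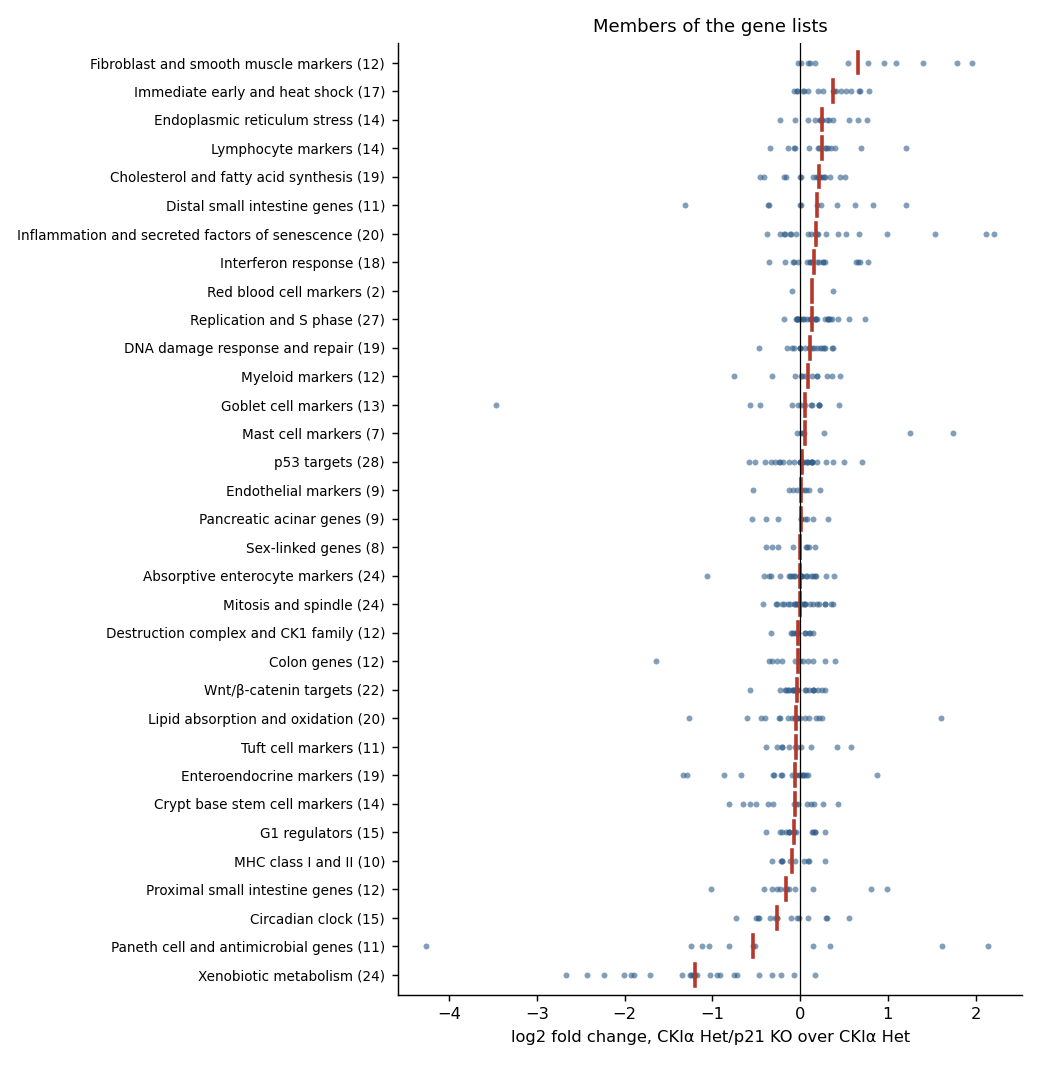
Log2 fold change of CKIalpha Het/p21 KO over CKIalpha Het for the tested members of 33 gene lists (number tested in brackets); points are genes, red bars are list medians. The cell cycle lists lie around 0, and the xenobiotic list has the lowest median, at -1.20.

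The list that lay furthest from 0 was xenobiotic metabolism, the enzymes and pumps that oxidise, conjugate and export foreign compounds and that absorptive enterocytes carry in quantity. Of its 27 members 24 were tested, 23 of them were below 0 and 19 had both CKIalpha Het/p21 KO arrays below both CKIalpha Het arrays, against 20.5% of all genes. Their median was -1.20, against -0.02 over all genes. At an unadjusted p under 0.05, 8 were lower and 0 higher, against 2.49% and 2.51% of all genes, and 0 were called. Over all genes 54% were below 0. The mean level of the 24 genes was 8.47 and 8.21 on the CKIalpha Het/p21 KO arrays, against 9.37 and 9.71 on the CKIalpha Het arrays. Each array of the p21 knockout thus lay below each array with p21. The list was chosen with earlier results of these data known, so its position is no independent evidence. As the RNA came from a mixture of cells, fewer cells of a type and less RNA per cell cannot be told apart, here and for all markers below.

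Several members belonged to the conjugating enzymes. Gstm3, a glutathione S-transferase gene, read 10.32 and 9.83 in CKIalpha Het/p21 KO, against 11.98 and 12.02 in CKIalpha Het (-1.93 ± 0.38, 3.80-fold lower, adjusted p = 0.379). Gstm1, a close relative, read 8.24 and 7.66, against 10.22 and 10.16 (-2.24 ± 0.45, adjusted p = 0.379). The groups did not overlap in either gene, and the CKIalpha Het arrays lay within 0.1 of each other. Ugt2b5, which encodes an enzyme that attaches glucuronic acid, read 4.49 and 4.58, against 6.60 and 6.49 (-2.01 ± 0.40). Outside the list, Ugt2b35, of the same family as Ugt2b5, was at -1.33 ± 0.26. Gstk1, a glutathione transferase of another class and also outside the list, was at -1.83 ± 0.38. All of these are among the 15 genes with the smallest p of those lower, and none was called.

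The oxidising and hydrolysing enzymes had values of similar size. Cyp2j6, a cytochrome P450 gene, read 8.97 and 7.98 in CKIalpha Het/p21 KO, against 9.60 and 9.77 in CKIalpha Het (-1.21 ± 0.37). Cyp3a11, the main drug-metabolising P450 of its subfamily in mice and named after its values were seen, read 9.31 and 8.84, against 11.26 and 11.74 (-2.43 ± 1.18, adjusted p = 1.00). Its groups did not overlap, but its standard error is large, and its replicates lay far apart elsewhere, at 9.27 and 4.13 in CKIalpha KO/p21 KO. With only the 6 arrays of the heterozygous groups fitted, Cyp3a11 was called. The carboxylesterase genes Ces1g and Ces1d are not on the list and were named for their small p. Ces1g read 6.37 and 5.53, against 8.66 and 8.15 (-2.46 ± 0.46, 5.49-fold lower, adjusted p = 0.379). Ces1d read 4.74 and 4.34, against 6.85 and 6.32 (-2.05 ± 0.43). At the other end of the list Cyp1b1 was the 1 member above 0, at 0.16 ± 0.19, and the export pump gene Abcc2 was at -0.07 ± 0.39.

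Whole families named by symbol, which were chosen after their values were seen, lay the same way. Of 19 Gst genes 18 were below 0 (median -0.47) and 9 were lower at an unadjusted p under 0.05. Of 16 Ces genes 15 were below 0 (median -0.58) with 7 lower, and of 8 Ugt genes 7 (median -0.66) with 3 lower. The 29 Cyp2 genes had 23 below 0 (median -0.28) with 3 lower. Over all genes 54% were below 0 and 2.49% were lower at that threshold. By contrast the 288 Zfp genes had a median of -0.04. Of 8 Akr1 genes, for aldo-keto reductases, 6 were below 0 (median -1.02) with 4 lower and 1 higher. The highest Gst gene was Gstm5 at 1.00, and the highest Akr1 gene was Akr1b8 at 1.34. Members of such families are alike in sequence, so a probe set can bind transcripts of more than 1 member, and their values are not separate measurements.

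Absorptive enterocyte markers did not share this. The 24 tested had a median of 0.00 and 0 at an unadjusted p under 0.05, and their mean level was 11.74 and 11.79 on the CKIalpha Het/p21 KO arrays, against 11.61 and 12.04 on the CKIalpha Het arrays. Treh, the trehalase gene, was lowest at -1.06 ± 0.70, and the brush border sugar enzyme gene Mgam highest at 0.38 ± 0.24. The lipid absorption and oxidation list had 0 of 20 at that threshold (median -0.05). The cholesterol exporter gene Abca1 was its highest member, with 8.75 and 8.83, against 6.04 and 8.32 (1.61 ± 0.77), and the fatty acid transporter gene Cd36 its lowest (-1.27 ± 0.78). Cholesterol and fatty acid synthesis had 1 higher and 1 lower of 19 at that threshold, against 2.51% and 2.49% of all genes (median 0.21). These were Insig1, for a protein that holds back sterol synthesis, at 0.46 ± 0.20, and Dhcr7, for the last step of cholesterol synthesis, at -0.41 ± 0.15.

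**Figure D4:**
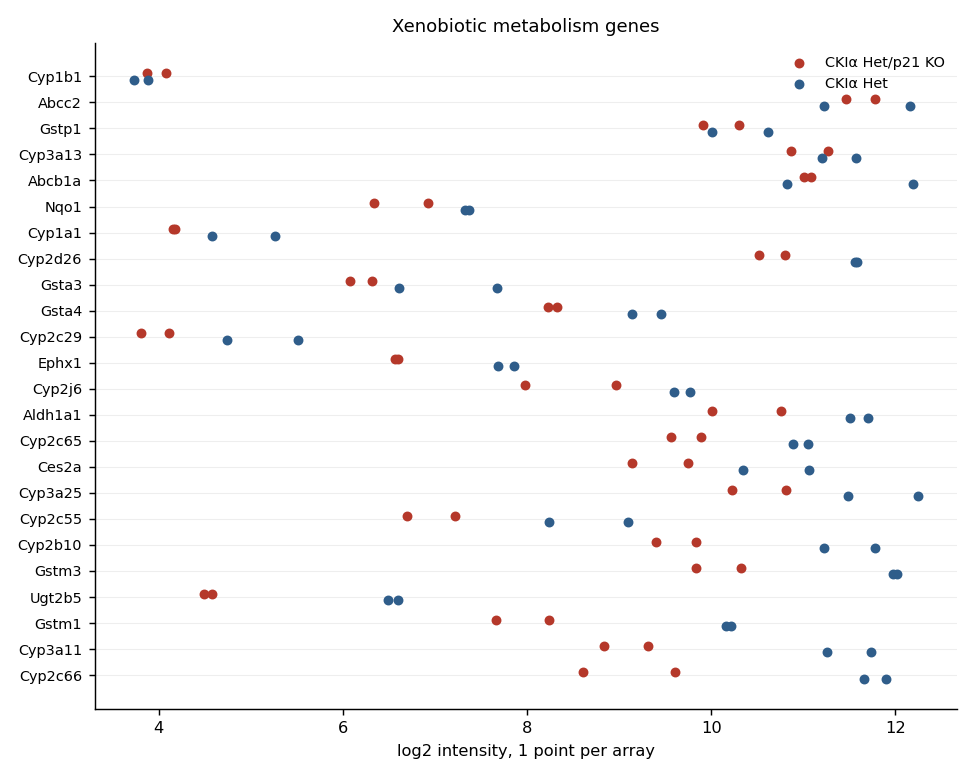
Log2 intensity of the 24 xenobiotic metabolism genes tested, sorted by fold change with the highest at the top; points are the 2 CKIalpha Het/p21 KO arrays (red) and the 2 CKIalpha Het arrays (blue). For 19 of the 24 genes both red points lie left of both blue points. Levels are comparable within a gene only.

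Genes of the epithelial oxidase and some of antimicrobial defence were among the highest values. Duox2 encodes an oxidase that releases hydrogen peroxide at the epithelial surface, and it read 7.97 and 8.32 in CKIalpha Het/p21 KO, against 5.64 and 6.41 in CKIalpha Het (2.12 ± 0.33, 4.35-fold, adjusted p = 0.361). Duoxa2, its maturation factor, read 7.25 and 7.04, against 5.48 and 5.74 (1.54 ± 0.33). In both genes the groups did not overlap. Nos2, the inducible nitric oxide synthase gene, read 8.32 and 8.32, against 5.23 and 7.0 (2.21 ± 0.55). At an unadjusted p under 0.05, 2.51% of all genes were higher and 2.49% lower. Of the 20 inflammation and senescence-associated genes tested, 5 were higher and 0 lower at that threshold, and the median was 0.18. The remaining ones were Igfbp5, which binds insulin-like growth factors, at 0.43 ± 0.14, and Plaur, the urokinase receptor gene, at 0.99 ± 0.38, named after its values were seen. Of the 20 genes of that list 13 were above 0. Both CKIalpha Het/p21 KO arrays lay above both CKIalpha Het arrays for 9 of the 20, against 15.9% of all genes. They lay below for 1, against 20.5%. Among its secreted cytokine genes, Il1b was at -0.19 ± 0.42, Tnf at -0.10 ± 0.29 and Cxcl1 at -0.11 ± 0.22, all chosen after their values were seen.

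The C-type lectins Reg3b and Reg3g, antibacterial proteins of the gut mucosa, lay with the oxidase. Reg3b read 12.48 and 12.61 in CKIalpha Het/p21 KO, against 10.20 and 10.60 in CKIalpha Het (2.14 ± 0.54), and Reg3g 12.53 and 12.46, against 10.54 and 11.21 (1.62 ± 0.46). The Reg family as a whole was mixed. Of 5 Reg genes tested, 3 were below 0 (median -0.82), with Reg1 lowest at -1.44. At an unadjusted p under 0.05, 2 of the 5 were higher and 2 lower. The Paneth cell phospholipase gene Pla2g2a lay the other way, with 6.82 and 5.46, against 10.58 and 10.23 (-4.26 ± 1.44). It also read 6.93 and 10.16 on the CKIalpha Het/p53 KO arrays, so this gene split a group elsewhere. Ang4, a Paneth cell ribonuclease gene, read 6.07 and 5.06, against 7.27 and 6.35 (-1.25 ± 0.47). Of 11 Paneth and antimicrobial genes tested, 2 were thus higher and 2 lower at that threshold, against 2.51% and 2.49% of all genes. The list median was -0.54. Without CKIalpha Het/p21 KO replicate 1 the median was -1.19.

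Retnlb is a goblet cell gene for an antimicrobial resistin-like protein. It read 3.46 and 3.18 in CKIalpha Het/p21 KO, against 6.60 and 6.98 in CKIalpha Het (-3.47 ± 0.81, adjusted p = 0.473). Spink4, another goblet cell gene, read 10.50 and 10.19, against 9.87 and 9.95 (0.44 ± 0.18). The remaining 11 of 13 goblet markers had an unadjusted p over 0.05, and the list median was 0.06. Of all genes, 2.51% were higher and 2.49% lower at an unadjusted p under 0.05.

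The other genes with the smallest p of those higher had several roles. Muc4, a mucin anchored in the cell membrane, read 7.39 and 7.48 in CKIalpha Het/p21 KO, against 5.32 and 5.33 in CKIalpha Het (2.11 ± 0.42). Ptk6, a tyrosine kinase gene of differentiating epithelium, read 8.79 and 8.89, against 7.42 and 7.84 (1.21 ± 0.24). Zc3h12a, whose product degrades messenger RNAs of inflammation, read 7.71 and 7.68, against 6.75 and 6.94 (0.85 ± 0.17). In each of them the arrays of a group lay close together and the groups did not overlap. Slc44a4, a choline transporter-like gene, was at 0.90 ± 0.15, and Fbxo32, the ubiquitin ligase adaptor atrogin-1, at 1.40 ± 0.24. Plek2, a pleckstrin gene, was at 1.32 ± 0.27 and the arrestin-domain gene Arrdc4 at 0.79 ± 0.14. Miga1, a mitochondrial fusion gene, was at 0.81 ± 0.14, Atrn at 0.75 ± 0.14 and Amph, for the membrane-bending protein amphiphysin, at 0.94 ± 0.19. The zinc finger genes Zfp939 and Zfp791 were at 1.39 ± 0.23 and 1.56 ± 0.27.

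Of the genes lower, Otop3 came nearest to the threshold. It encodes a protein of the otopetrin family of proton channels and read 5.03 and 5.29 in CKIalpha Het/p21 KO, against 6.58 and 6.78 in CKIalpha Het (-1.52 ± 0.18, 2.88-fold lower, adjusted p = 0.0822). The 2 groups did not overlap. Otop3 passed after a further quantile normalization (adjusted p = 0.0391), with array weights (0.0262), and when either array of CKIalpha Het/p53 KO (0.0362) or of CKIalpha KO/p21 KO (0.0342) was left out, and its adjusted p over all alternatives ran from 0.0262 to 0.377. Ocm, for the calcium-binding protein oncomodulin, read 4.71 and 4.77, against 6.14 and 6.72 (-1.69 ± 0.31). Mettl7a1, a methyltransferase-like gene, read 6.63 and 6.34, against 7.54 and 7.43 (-1.0 ± 0.19). Scoc, for a coiled-coil protein with a part in autophagy, was at -1.38 ± 0.26, and Hal, for the enzyme that breaks down histidine, at -1.05 ± 0.22. Lzic was at -0.79 ± 0.16, Sike1, for an inhibitor of the antiviral kinase IKKε, at -0.78 ± 0.16 and the ribonuclease gene Ang6 at -0.68 ± 0.14.

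Marker lists of crypt, enteroendocrine and tuft cells had medians near 0, with single genes away from it. Of 14 crypt base markers Hopx, a homeobox gene of reserve stem cells, was the 1 with an unadjusted p under 0.05, with 6.29 and 6.11 in CKIalpha Het/p21 KO, against 6.89 and 6.82 in CKIalpha Het (-0.65 ± 0.15). The stem cell factor gene Ascl2 read 4.82 and 4.52, against 5.18 and 5.31 (-0.58 ± 0.38). The list median was -0.06, but it was -0.39 without CKIalpha Het/p21 KO replicate 1 and 0.20 without its replicate 2. Of 19 enteroendocrine markers 1 was higher and 2 lower at an unadjusted p under 0.05, against 2.51% and 2.49% of all genes (median -0.06). Both CKIalpha Het/p21 KO arrays lay below both CKIalpha Het arrays for 7 of them, against 20.5% of all genes. They lay above for 1, against 15.9%. The neurotensin gene Nts was lowest, with 7.36 and 7.60, against 8.85 and 8.79 (-1.34 ± 0.68), and had an unadjusted p over 0.05 in limma. The somatostatin gene Sst read 8.30 and 7.76, against 9.65 and 8.99 (-1.29 ± 0.47), and the cholecystokinin gene Cck 6.94 and 6.97, against 8.05 and 7.60 (-0.87 ± 0.36). Tac1, for substance P, read 4.94 and 4.88, against 3.92 and 4.13 (0.88 ± 0.29). Among 11 tuft cell markers the signalling enzyme gene Plcg2 was higher at that threshold, with 7.06 and 7.21, against 6.56 and 6.53 (0.59 ± 0.14), and the list median was -0.05.

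Genes that mark the position along the gut were mixed. Slc51b, for a subunit of the bile acid exporter of the ileum, read 9.54 and 9.74 in CKIalpha Het/p21 KO, against 8.93 and 8.70 in CKIalpha Het (0.83 ± 0.19). Slc10a2, the ileal bile acid importer gene, read 8.19 and 7.52, against 5.91 and 7.38 (1.21 ± 0.52), and CKIalpha Het replicate 1 was the array apart. On the CKIalpha Het/p53 KO arrays Slc51b read 9.73 and 9.16 and Slc10a2 9.08 and 7.87, also above both CKIalpha Het arrays. Ces1f, a carboxylesterase gene of the same distal list, was at -1.31 ± 0.51 with p21 knocked out and at -0.12 with p53 knocked out. With p21 knocked out, the distal list thus had 2 of 11 higher and 1 lower at an unadjusted p under 0.05 (median 0.19). The shares of all genes were 2.51% and 2.49%. In the proximal list 1 of 12 was lower, the folate transporter gene Slc46a1 with 8.54 and 8.73, against 9.50 and 9.81 (-1.02 ± 0.38), and its median was -0.16. Among 12 colon genes the water channel gene Aqp8 was lower at that threshold, with 4.24 and 3.76, against 6.92 and 4.39, where 1 CKIalpha Het array made the difference. Pancreatic acinar genes had 0 of 9 (median 0.01).

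Markers of cells outside the epithelium differed mostly on single arrays. The 12 fibroblast and smooth muscle markers tested had a mean level of 5.86 and 6.84 on the CKIalpha Het/p21 KO arrays, against 5.45 and 5.77 on the CKIalpha Het arrays, and a median fold change of 0.66. Myh11, the smooth muscle myosin gene, read 4.38 and 7.71, against 4.18 and 4.34, so that replicate 2 alone carried the signal. The median was 0.24 without this array and 1.17 without replicate 1. Of 14 lymphocyte markers 2 genes of B cells were higher at an unadjusted p under 0.05, against 2.51% of all genes. Ms4a1 read 4.96 and 3.72, against 3.13 and 3.16, and Cd79a 4.75 and 3.91, against 3.63 and 3.65. The list had a mean level of 7.19 and 7.82, against 7.25 and 7.27. Of 12 myeloid markers 1 was lower (the lysozyme gene Lyz2, -0.75 ± 0.32), of 7 mast cell markers 0, of 9 endothelial markers 0, and of 2 red blood cell genes the haem synthesis gene Alas2 was higher. The part of these cells in the values of other genes was not tested.

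Stress response genes lay slightly above 0. Of 17 immediate early and heat shock genes 4 were higher and 0 lower at an unadjusted p under 0.05 (median 0.37). Over all genes 2.51% were higher and 2.49% lower at that threshold. The stress-induced transcription factor gene Atf3 read 10.43 and 10.69 in CKIalpha Het/p21 KO, against 9.70 and 9.85 in CKIalpha Het (0.79 ± 0.19), and the heat shock gene Hspa1a 6.82 and 6.72, against 6.19 and 5.97 (0.69 ± 0.21). Jund and Ier2, both early response genes, were at 0.37 ± 0.13 and 0.41 ± 0.16. The endoplasmic reticulum stress list had 2 of 14 higher (median 0.25). These were Atf4, the factor that drives amino acid and stress response genes, with 8.49 and 8.82, against 7.85 and 8.15 (0.66 ± 0.17), and Asns, the asparagine synthetase gene and a target of ATF4, with 8.97 and 8.73, against 7.92 and 8.25 (0.77 ± 0.20). In the interferon list 2 of 18 were higher (median 0.16): Mx1 at 0.66 ± 0.22 and Gbp3 at 0.64 ± 0.25. Of 10 MHC genes 0 reached the threshold (median -0.09), nor did any of 15 circadian clock genes (median -0.26) or of 8 sex-linked genes (median 0.00). All of these lists had 0 members called.

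p21 is a target of p53, and the comparison of CKIalpha Het/p21 KO with CKIalpha Het/p53 KO asked how the loss of the one differs from the loss of the other in the same heterozygous gut. Here 5 of 16721 genes were called (0.0299%), 2 higher (0.012%) and 3 lower (0.0179%), and 2065 (12.3%) had an unadjusted p under 0.05. The CKIalpha Het/p21 KO arrays are shared with the main comparison. Besides Rab44 (2.83 ± 0.22, adjusted p = 0.00338), Ccn1 rose, a matrix-associated signalling protein gene that responds to cell stretch and growth factors. It read 7.93 and 8.37 in CKIalpha Het/p21 KO, against 6.62 and 6.76 in CKIalpha Het/p53 KO (1.46 ± 0.18, adjusted p = 0.0483). With 7.14 and 7.21 on the CKIalpha Het arrays, those lay between the groups.

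Ocm, Otop3 and Mettl7a1 fell. Ocm read 4.71 and 4.77 in CKIalpha Het/p21 KO, against 7.92 and 7.40 in CKIalpha Het/p53 KO (-2.92 ± 0.31, adjusted p = 0.0176). Otop3 read 5.03 and 5.29, against 7.34 and 6.86 (-1.94 ± 0.18, adjusted p = 0.00971), and Mettl7a1 read 6.63 and 6.34, against 8.16 and 7.91 (-1.55 ± 0.19, adjusted p = 0.0428). With the replicate number as a block, which also separates the Xist-high from the Xist-low arrays, Rab44 and Otop3 passed, whereas Ocm (adjusted p = 0.0515), Ccn1 (0.0577) and Mettl7a1 (0.0769) did not. In Ocm, Otop3 and Mettl7a1 the CKIalpha Het arrays again lay between the 2 knockouts. Without either CKIalpha KO/p21 KO array 12 genes were higher and 14 lower, and without CKIalpha Het/p21 KO replicate 1 there were 6 higher. Without CKIalpha Het/p53 KO replicate 1 none of the 5 genes passed, with adjusted p from 0.0611 (Rab44) to 0.379 (Ccn1). Of 24 xenobiotic genes 11 were lower at an unadjusted p under 0.05, against 7.41% of all genes, and the median was -1.12. CKIalpha Het/p53 KO against CKIalpha Het, which shares the CKIalpha Het arrays, called 0 genes in limma, with 941 (5.63%) at an unadjusted p under 0.05.

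Whether p21 loss had another effect in CKIalpha KO mice was tested as the difference of the 2 effects. In limma 0 genes were called, 1359 (8.13%) had an unadjusted p under 0.05, and the smallest adjusted p was 0.308. Without CKIalpha KO/p21 KO replicate 1, the test called 74 genes higher and 34 lower, whereas leaving out replicate 2 gave 0 and 1. In CKIalpha KO/p21 KO against CKIalpha KO, 6 genes were called (0.0359%), 4 higher and 2 lower. Of the 30 genes named by smallest p in CKIalpha Het mice, 19 had the same sign in CKIalpha KO mice. Of the 15 lower 13 had it, and of the 15 higher 6, against 8500 of 16721 genes (50.8%) overall. Among the 837 genes with an unadjusted p under 0.05 in CKIalpha Het mice, 460 had it (55%). In CKIalpha KO mice 56.4% of all genes lay below 0, so the base rate differs between the 2 directions. With the same sign, 10 of the 30 had an unadjusted p under 0.05 there, and Rab44 was called. Of the 837 genes 98 met both conditions, and of all 16721 genes 1062. The CKIalpha KO arrays gave no part of the fold changes in CKIalpha Het mice, but they entered the filter and the pooled error. Both p-values of a gene thus rest on the same error, and those in CKIalpha KO mice are no independent check of the choice.

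The 2 directions are seen in single genes. Ocm read 4.55 and 3.76 in CKIalpha KO/p21 KO, against 5.99 and 6.62 in CKIalpha KO (-2.15 ± 0.31, adjusted p = 0.0835). Hal read 4.68 and 4.45, against 5.80 and 5.68 (-1.18 ± 0.22), and Otop3 4.75 and 4.64, against 5.54 and 5.64 (-0.90 ± 0.18, adjusted p = 0.168). Of those higher, Miga1 was at 0.68 ± 0.14 and Ccn1 at 0.82 ± 0.18. These 5, chosen after their values were seen, lay on the same side in both CKIalpha genotypes with no overlap of the groups.

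The oxidase genes lay on opposite sides. Duox2 read 8.71 and 8.98 in CKIalpha KO/p21 KO, against 10.08 and 9.71 in CKIalpha KO, and Duoxa2 7.86 and 9.14, against 9.74 and 9.52. Their differences there were -1.05 ± 0.33 and -1.13 ± 0.33. The difference between the 2 effects was -3.17 ± 0.47 for Duox2 (adjusted p = 0.308) and -2.67 ± 0.46 for Duoxa2 (adjusted p = 0.566), and neither passed. Reg3b was at 0.02 ± 0.53 in CKIalpha KO mice. The xenobiotic list had a median of -0.38 there, against -1.20 in CKIalpha Het mice, with Gstm3 at -1.03 ± 0.38 and Gstm1 at -0.47 ± 0.45. The difference between the CKIalpha genotypes had an unadjusted p under 0.05 for 5 of its 24 members, and 0 were called.

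**Figure D5:**
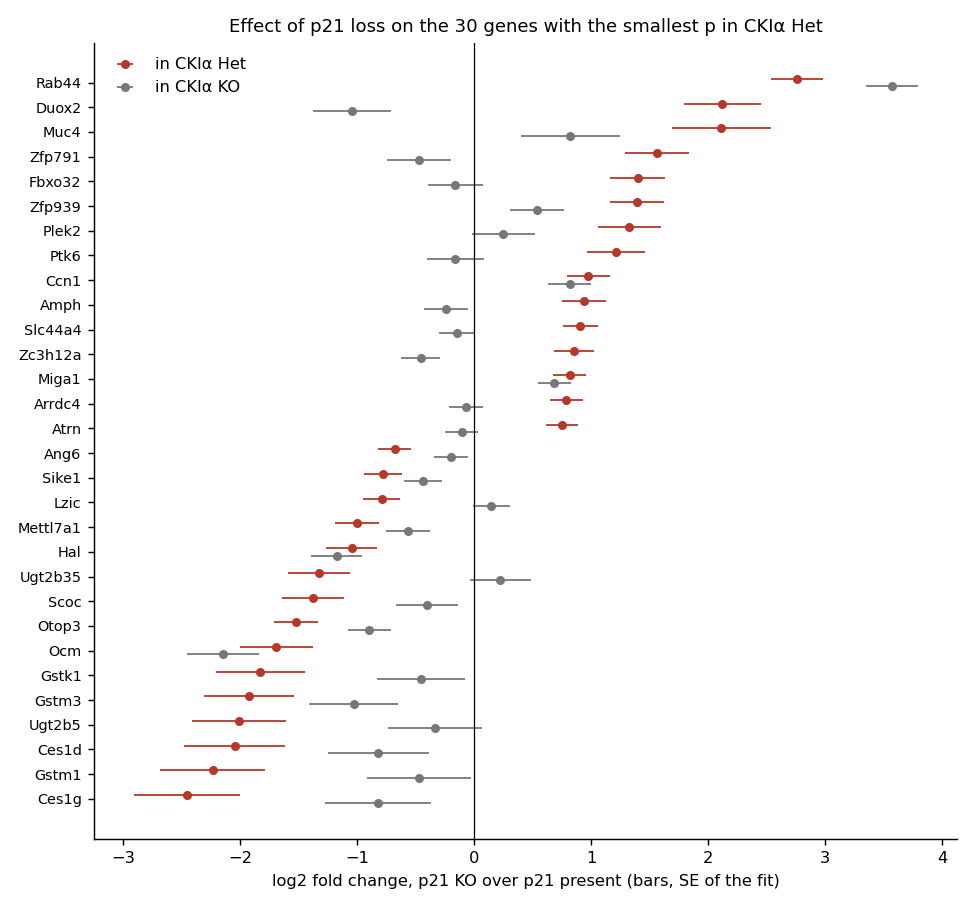
Log2 fold change of p21 knockout over p21 present for the 30 genes with the smallest p in CKIalpha Het mice, in CKIalpha Het (red, the values that chose the genes) and CKIalpha KO mice (grey). Bars are SE of the fit. The grey fold changes come from other arrays, which entered the choice through the filter and the pooled error. Of the 15 genes lower in CKIalpha Het, 13 are below 0 in CKIalpha KO as well, and of the 15 higher, 6 are above 0.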

How the data were processed

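Per the labels' protocols, total RNA of mouse enterocytes was hybridized to Affymetrix arrays, and the authors extracted intensities with Expression Console 1.1 by RMA Sketch and normalized them by the median. The deposited values are taken here to be log2 intensities, a base that was inferred from their range because no label gives it. Of 35556 probe sets, 21789 carry 1 gene symbol in the platform annotation, 1621 several and 12146 none. For 999 of 19938 genes the brightest of several probe sets was used. Tests covered the 16721 genes above the 25th percentile of an array on 2 or more of the 12 arrays with a group. RefSeq (GRCm38.p6) gave the gene order and promoters.

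One linear model over these arrays was fitted in R 4.3.3 by limma 3.58.1 (lmFit, eBayes, 6 groups, 6 residual degrees of freedom), with two-sided p-values adjusted by Benjamini-Hochberg. Errors are standard errors of the fit. Array number limits the precision. An exact permutation of 2 against 2 arrays cannot go below p = 0.333 and was not used. The array titled as the third CKIalpha KO/p53 KO replicate has a genotype label of CKI KO and entered no comparison. The fit was tested on simulated data.

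Named genes are the targeted genes, the 15 per direction with the smallest p where fewer than 10 were called, the leading members of every list by p (up to 4), the 5 nearest genes on each side of Cdkn1a, and called genes of the other comparisons. Among the genes of smallest p, symbols of predicted or accession-only genes and of sensory, immunoglobulin or T cell receptor gene families were skipped. The arrays, gene lists and tests were chosen with earlier results of these data known. Xist, Kdm5d, Brpf3, Cyp1b1, Abcc2, Gstm5 and Akr1b8 were also named after their values were seen. Alternatives covered the filter, normalization, centring, an intensity trend, array weights, probe set choice, the arrays fitted, the replicate number as a block and each array left out.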

Additional observations from a re-analysis of the deposited data

How the results depend on the processing

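The number of arrays limits these results: over the alternatives, 86 counts of called genes stayed within 1.5 times and 42 moved by more. In CKIalpha Het/p21 KO against CKIalpha Het, 4 genes were higher and 5 lower with the 6 CKIalpha Het arrays only, 0 were higher with the 4 arrays only, and 1 was lower with a further quantile normalization, with array weights and among all probe sets, an alternative added after the data were seen. Leaving out each array in turn gave 0 to 4 higher and 0 to 5 lower. Against CKIalpha Het/p53 KO, 1 gene was higher without the filter, with quantile normalization and with centred arrays. Array weights gave 8 higher and 6 lower, the 6 CKIalpha Het arrays only 5 and 14, and leaving out arrays 0 to 12 and 0 to 14. The difference between CKIalpha genotypes gave 0 to 74 higher and 0 to 34 lower when arrays were left out. The cause of these moves was not tested.

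In all 6 groups replicate 1 was low and replicate 2 high in Xist, so the replicate number matches the arrays in this respect. The labels tie the numbers to no shared animal, litter or day, and same-numbered arrays of 2 groups had correlations of deviations from -0.162 to 0.248, over 0.1 in 5 of 15 pairs. With the replicate number as a block, the main comparison kept 1 higher and 0 lower, and the comparison with CKIalpha Het/p53 KO had 1 higher (Rab44) and 1 lower (Otop3), with Ocm, Ccn1 and Mettl7a1 no longer called.

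With the filter at the array median, the list medians were -0.25 for pancreatic acinar genes, -0.087 for endothelial markers and 0.36 for inflammation, and red blood cell markers gave no value. Leaving out arrays moved the medians of mitosis genes between -0.214 and 0.242, replication genes between 0.001 and 0.261, G1 regulators between -0.151 and 0.003, crypt base markers between -0.39 and 0.20, Paneth genes between -1.19 and -0.17, myeloid markers between -0.023 and 0.178, fibroblast and smooth muscle markers between 0.24 and 1.17 and MHC genes between -0.39 and 0.39. The ranges were -0.025 to 0.338 for inflammation, -0.36 to 0.49 for clock genes, 0.14 to 0.47 for immediate early genes and 0.17 to 0.39 for endoplasmic reticulum stress. The xenobiotic median stayed between -1.38 and -0.96, with 3 to 19 members lower at an unadjusted p under 0.05 over all settings. Leaving out arrays, Csnk1a1 ran from -0.205 to 0.0122 and Srsf3 from -0.0177 to 0.216, the turned sign coming without CKIalpha Het/p21 KO replicate 1.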

Other observations

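On the array that entered no comparison, titled as the third CKIalpha KO/p53 KO replicate, the probe set shared by Cdkn1a and 4930567H12Rik read 10.04, Rab44 5.23, Duox2 9.69, Otop3 7.01, Gstm3 11.26, Gstm1 9.19 and Reg3b 12.53.

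Some genes, chosen after their values were seen, split the arrays of a group. The antiviral-family gene Trim12a read 4.02 and 3.71 in CKIalpha Het/p21 KO, against 3.51 and 7.61 in CKIalpha Het, and it read 7.27 and 7.71 in CKIalpha KO and 3.75 or less on the arrays of the other 3 groups. St3gal4, described with the arrays, read 10.85 and 11.31 in CKIalpha KO and no more than 6.49 on the arrays of those 3 groups. CKIalpha Het replicate 2 and the CKIalpha KO arrays thus shared high values of both genes. The fibronectin gene Fn1 read 8.32 and 5.44 in CKIalpha Het/p21 KO, against 4.98 and 8.64 in CKIalpha Het.

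The gasdermin genes Gsdmc4 and Gsdmc2, of a family of pore-forming proteins, were higher without passing. Gsdmc4 read 8.53 and 7.45 in CKIalpha Het/p21 KO, against 5.70 and 6.54 in CKIalpha Het (1.87 ± 0.50, adjusted p = 0.576 in limma), and Gsdmc2 read 9.54 and 8.61, against 6.79 and 8.08 (1.64 ± 0.89). In CKIalpha KO mice the median of the pair was -0.67.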
